A study of Homo sapiens with 24 samples.

Results

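H838 is a cell line from a human lung cancer of the non-small cell kind, and its response to a scratch wound was followed here in the co-culture in which the neighbouring cells were also H838. The comparison used 8 of the series' 24 arrays, chosen by the labels alone: the H838 co-culture arrays on the BeadChip called chip 2 here, taken up to 15 h. The later arrays were those at 3, 4, 5, 10 and 15 h after scratching (5 arrays), and the early arrays were the unscratched 0 h array (the second of its duplicate) and those at 1 and 2 h after scratching (3 arrays). All 8 therefore shared the co-culture and the chip, and differed by the labels in time and, for 0 h, in having no scratch. In every group H838 cells in a plate had grown to confluence under a transwell filter that carried further H838 cells. The medium was supplemented endothelial growth medium with serum. The plated monolayer was then scratched repeatedly, except for the unscratched 0 h array, and lysed. The other co-culture of the series had HPAEC, primary human pulmonary artery endothelial cells, on the filter. Its arrays at the same 8 times all lay on chip 1 and shared no array with this comparison.

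Scratching a confluent monolayer kills cells along the track, releases their contents and frees the remaining cells at the edge, which spread and move into the gap. Epithelial and carcinoma cells are known to answer within the first hours with a burst of immediate early transcription factors under the ERK pathway and serum response factor, a burst that switches itself off. Slower programmes follow in many cell types, among them ribosome production, changes of metabolism and passage through the cell cycle, and the later arrays cover the hours in which such programmes are usually looked for.

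The arrays detected 15518 to 16952 of 47286 probes each (32.82% to 35.85%, detection p under 0.01), at median raw intensities of 112.46 to 121.41. After normalization to log2 intensity, 10328 named genes had a probe detected on at least 3 of the 8 arrays and were tested. The correlation between arrays over these genes lay between 0.985 and 0.994, and the SD over genes of the difference between the 24 h duplicates on the same chip was 0.20 on the log2 scale. Arrays have no read depth, and their number limits the precision. Each array stood for another time, so the spread within the later or early arrays holds change over time as well as error. The labels do not say whether samples came from separate cultures, so p-values measure only the spread between these arrays, part of which may be technical.

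The labelled cell type was checked against its markers. Of 6 epithelial markers, EPCAM was detected on all 8 arrays and KRT18 on 7, while KRT7, KRT8, KRT19 and CDH1 were detected on none, so the usual keratin picture of a lung carcinoma line was mostly absent. Of 20 endothelial markers 16, VWF, CDH5, KDR and PECAM1 among them, were detected on no array, and SOX18 and MMRN1 were detected on all 8. Of 15 fibroblast and smooth muscle markers 8 were detected on all 8 arrays, and COL3A1, a fibrillar collagen, lay at 12.84 to 13.28 log2. Their summed linear intensity was 22130 to 25310 on later arrays, against 19900 to 25280 on early arrays. Of 12 leukocyte markers 7 were detected on no array, and the sum of the 12 was 1606 to 2125 on later arrays, against 2060 to 2706 on early arrays. That sum was mostly CD68, which is also a lysosomal gene and was the only one detected on all 8 arrays. CD68 lay at 10.07 to 11.12 log2, while no other leukocyte marker exceeded 6.53. The endothelial sum was 3460 to 5006 on later arrays and 3413 to 4237 on early arrays. In bulk lysates fewer cells of a type and less RNA per cell cannot be told apart.

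Between the later and the early arrays 8 genes passed the test (limma, Benjamini-Hochberg adjusted p under 0.05), which is 0.0775% of the genes tested. GPATCH4, ZNF664, NUFIP1 and RIOK1 rose (4 genes, 0.0387%), and SCARNA14, TERC, SCARNA20 and PIK3IP1 fell (4 genes, 0.0387%). Of the genes that rose, RIOK1 is a kinase of the maturing small ribosomal subunit, NUFIP1 helps to assemble box C/D small nucleolar ribonucleoproteins, GPATCH4 is a nucleolar G-patch protein and ZNF664 is a zinc finger protein. Of the genes that fell, TERC is the RNA template of telomerase, SCARNA14 and SCARNA20 are small Cajal body RNAs, a class that guides the modification of spliceosomal RNAs, and PIK3IP1 is a membrane protein that holds back PI3-kinase. At an unadjusted p under 0.05 there were 1455 genes (14.1%), 851 higher and 604 lower, against 480 in all with median scaling.

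GPATCH4 measured 8.92, 9.31, 9.15, 9.24 and 8.91 log2 on the later arrays (3, 4, 5, 10 and 15 h), against 8.32, 8.29 and 8.43 on the early arrays (0, 1 and 2 h). Every later array lay above every early one, and the rise of 0.76 ± 0.11 (SE; adjusted p = 0.0481) was a 1.69-fold change. RIOK1 measured 9.22, 9.23, 9.15, 9.31 and 9.08 on the later arrays, against 8.53, 8.59 and 8.62 on the early arrays. Its rise of 0.62 ± 0.09 (adjusted p = 0.0427) was there at 3 h, and every later array lay above every early one. NUFIP1 measured 7.13, 7.29, 7.30, 7.49 and 7.40 on the later arrays, against 6.75, 6.61 and 6.68 on the early arrays, a rise of 0.65 ± 0.10 (adjusted p = 0.0489). Its highest values were those at 10 and 15 h. ZNF664 measured 7.42, 7.20, 7.29, 7.21 and 7.18 on the later arrays, against 6.72, 6.52 and 6.58 on the early arrays, a rise of 0.66 ± 0.09 (adjusted p = 0.0427). It was highest at 3 h.

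TERC measured 7.37, 7.06, 7.14, 7.32 and 7.28 log2 on the later arrays, against 8.38, 8.19 and 7.84 on the early arrays. It fell by 0.90 ± 0.13 (adjusted p = 0.0427), and the early arrays already stepped down between 0 and 2 h. PIK3IP1 measured 8.03, 8.12, 8.21, 8.14 and 8.41 on the later arrays, against 8.99, 8.89 and 8.86 on the early arrays, and fell by 0.73 ± 0.10 (adjusted p = 0.0427). Its lowest value was at 3 h and its highest later value at 15 h. SCARNA20 measured 5.69, 5.51, 5.53, 5.78 and 5.76 on the later arrays, against 6.41, 6.52 and 6.43 on the early arrays, and SCARNA14 measured 5.14, 4.93, 5.50, 5.18 and 5.14 on the later arrays, against 6.33, 6.65 and 5.92 on the early arrays. Both were detected on 3 early and 0 later arrays, so they entered the test only through the group in which they were high. The test on the measured values gave −0.80 ± 0.10 for SCARNA20 (adjusted p = 0.0427) and −1.12 ± 0.16 for SCARNA14 (adjusted p = 0.0460). Measured against the lowest detected signal of each later array, SCARNA20 was at least 1.38-fold lower and SCARNA14 at least 1.24-fold lower, bounds that were not tested themselves. Over all genes tested, 10 were detected on no later array and 43 on no early array.

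**Figure D1:**
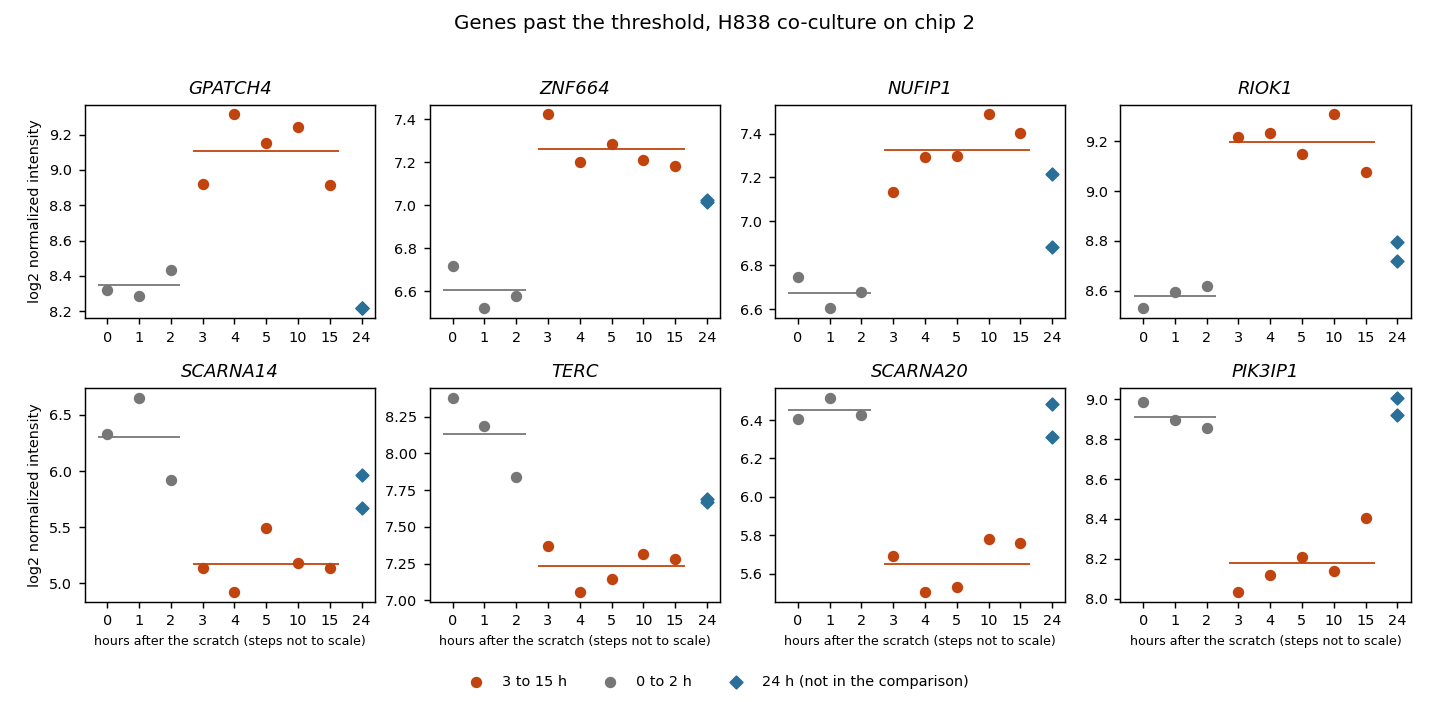
The 8 genes past the threshold, with log2 normalized intensity against hours after the scratch. Orange points are the later arrays, grey points the early arrays, lines their means, and blue diamonds the 24 h duplicate, which was outside the comparison. In each panel the later and early points do not overlap.

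The number of calls rested on single arrays. Without the 0, 1, 3, 4, 5 or 10 h array 0 genes passed, without the 2 h array 3 did, and without the 15 h array 13 did. All 8 genes kept their sign in every setting that tested them. With median scaling in place of quantile normalization 13 genes passed, 3 higher and 10 lower, and SCARNA14, TERC and SCARNA20 were the 3 that both scalings called. Under either scaling SCARNA14 and SCARNA20 entered the test only through the early arrays, and a filter on all 8 arrays leaves them out. Of the 8, PIK3IP1 alone had overlapping arrays under median scaling.

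The small non-coding RNAs were looked at as classes because 3 of the 4 genes that fell belong to them. Of 7 small Cajal body RNAs measured, SCARNA14 and SCARNA20 are the called ones given above, and the other 5 did not pass. SCARNA16, detected on 1 of the 5 later arrays and on all 3 early ones, had −1.01 ± 0.25, and SCARNA13 had −0.64 ± 0.17 (adjusted p = 0.134 and 0.150). SCARNA9, SCARNA18 and SCARNA10 had −0.24 ± 0.21, −0.21 ± 0.20 and 0.03 ± 0.11. The 30 H/ACA small nucleolar RNAs had a median change of −0.04 and the 29 box C/D ones −0.14, and none of either class passed. Among 9 other small RNAs all changes were negative, and TERC alone passed. RNY5, a Y RNA bound by the Ro protein, measured 6.33, 5.86, 6.43, 5.80 and 5.94 on the later arrays, against 6.66, 6.59 and 6.95 on the early arrays (change −0.67 ± 0.16, adjusted p = 0.125), and was detected on 3 of the 5 later arrays.

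These RNAs mostly lack the poly(A) tail from which messenger RNA labelling usually starts, and their level differed between single arrays. The list of 9 spliceosomal small nuclear RNAs measured had a median per array, relative to the early mean of each gene, of −0.68, −1.13, −0.89, −0.90 and −0.85 on the later arrays, against −1.21, 1.45 and −0.43 at 0, 1 and 2 h. The 1 h array alone stood high, and the 0 h array lay below every later array. The part of this in the result for the small Cajal body RNAs and TERC was not tested. Among the small Cajal body RNAs, SCARNA14, SCARNA20, SCARNA16, SCARNA13, SCARNA9 and SCARNA18 were each highest at 1 h among the early arrays, and TERC was highest at 0 h. Without the 1 h array SCARNA14, SCARNA20 and TERC kept their sign, and 0 genes passed.

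Since so few genes passed, the rest of the response is described by gene lists, none of which held a called gene, and by how the arrays lay. A gene's arrays are said to stand apart where all 5 later arrays lay above, or all below, all 3 early arrays. That held for 937 genes (9.07%), 544 higher (5.27%) and 393 lower (3.81%). These shares are the background for the counts below of genes that stood apart under quantile normalization. Under median scaling 249 of 10328 genes stood apart, 141 higher and 108 lower, and these lower numbers are the background for counts under that scaling. Of the 249, 158 were among the 937 and in the same direction. In the authors' deposited normalized values 643 of the 937 stood apart in the same direction. Of the 937, 9 were detected on no later array and 7 on no early array. Genes named from here on for arrays that stood apart, and the promoters printed, were chosen after the values were seen. Promoters were printed only for genes with a motif match, from the start with the most matches. The presence of a motif in them was therefore fixed by the choice.

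**Figure D2:**
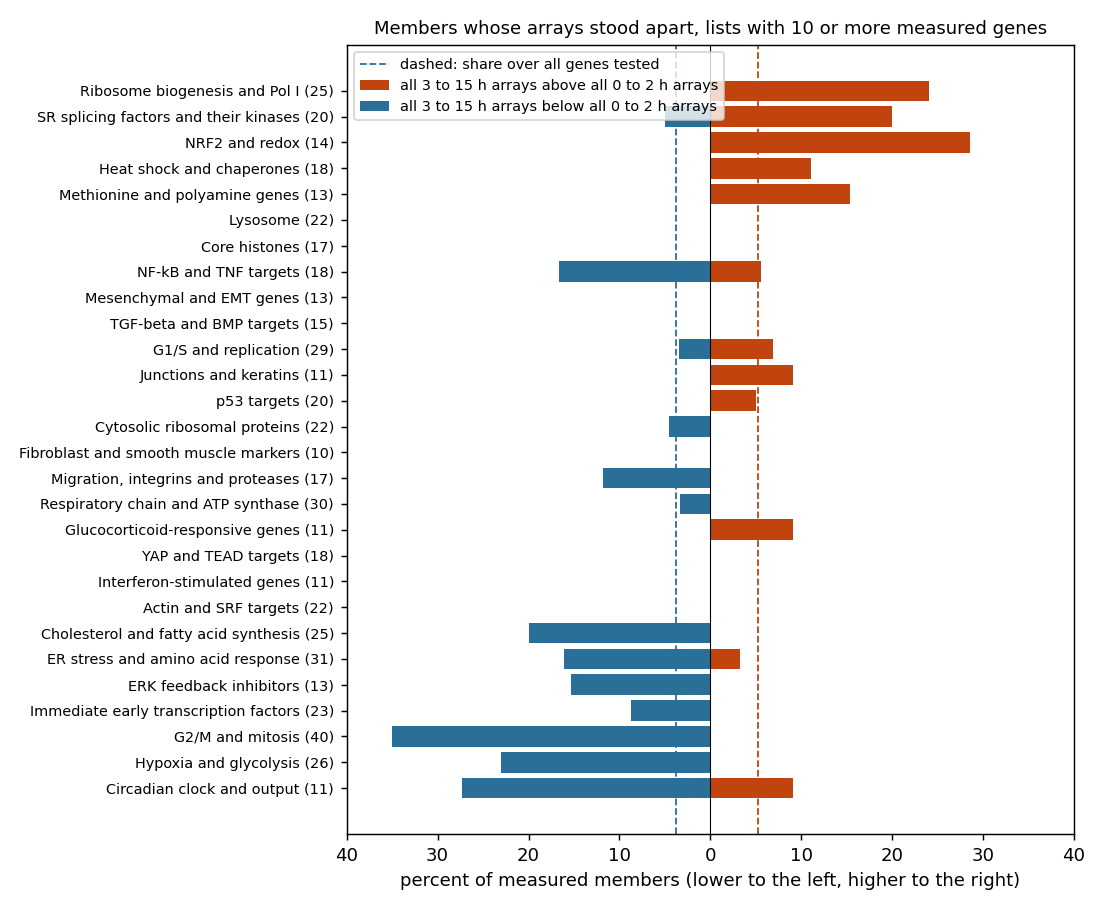
Percent of each list's measured genes (number in brackets) whose later arrays all lay above (orange, right) or all below (blue, left) the early arrays, for lists with 10 or more measured genes, ordered by median change. Dashed lines are the shares over all genes tested, 5.27% higher and 3.81% lower. Mitotic, hypoxia and clock genes reach furthest to the left, and redox, ribosome biogenesis and splicing factor genes furthest to the right.

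Genes that build ribosomes lay mostly higher on the later arrays. Ribosome production starts with RNA polymerase I in the nucleolus, where processing factors and small nucleolar RNAs shape the precursor RNA into subunits. Of 25 measured genes of ribosome biogenesis and RNA polymerase I, 21 changes were positive and the median was 0.28, against 0.01 over all genes tested. At an unadjusted p under 0.05, 12 were higher and 1, TAF1D, was lower, against 8.24% and 5.85% of all genes. UTP15, NOP58, UBTF, PNO1, BRIX1 and DKC1 stood apart as higher (6 of 25, against 5.27%), and UTP15 and NOP16 did so under median scaling. UTP15, a processing factor of the small subunit, measured 6.64, 6.71, 6.62, 6.36 and 6.32 on the later arrays, against 5.96, 6.06 and 6.14 on the early arrays (change 0.47 ± 0.11, adjusted p = 0.125). UBTF, which binds the ribosomal RNA gene promoter, measured 7.95, 7.76, 7.96, 8.11 and 7.88 on the later arrays, against 7.67, 7.69 and 7.26 on the early arrays (change 0.39 ± 0.12, adjusted p = 0.207). Both groups of values lay close to each other without overlap.

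By array the list's median lay at 0.31, 0.21, 0.33, 0.24 and 0.14 on the later arrays, against −0.04, −0.01 and 0.06 on the early arrays. It was highest at 5 h, and both 24 h arrays were at −0.10, below all early arrays. Of the ribosomal proteins themselves, 22 genes measured had a median change of −0.01, and RPL5 was the only one whose arrays stood apart, with a change of −0.08 ± 0.08. NOP16 and NIP7, both late-acting assembly factors of the large subunit, had changes of 0.43 ± 0.13 and 0.43 ± 0.15 with overlapping arrays (adjusted p = 0.214 and 0.248).

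Splicing factors of the SR family and the kinases that phosphorylate them also lay mostly higher. SR proteins bind exonic enhancers and guide the choice of splice sites, and CLK1 releases them from nuclear speckles. Of 20 measured genes 16 changes were positive with a median of 0.19, 6 were higher at an unadjusted p under 0.05 and 0 were lower. SRSF7, SRSF3, CLK1 and SRSF2 stood apart as higher (4 of 20) and SRSF4 as lower, and under median scaling SRSF3 and CLK1 stood apart. SRSF3 measured 10.29, 10.26, 10.25, 10.60 and 10.40 log2 on the later arrays, against 9.87, 9.61 and 9.72 on the early arrays (change 0.63 ± 0.11, adjusted p = 0.0748). SRSF7 measured 10.06, 10.30, 10.58, 10.77 and 10.35 on the later arrays, against 9.70, 9.70 and 9.52 on the early arrays (change 0.77 ± 0.14, adjusted p = 0.0930). Both were highest at 10 h. SRSF6 measured 12.98, 12.96, 13.01, 12.99 and 12.22 on the later arrays, against 11.86, 12.31 and 12.60 on the early arrays, so its 15 h array lay among the early ones.

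MAT2A makes S-adenosylmethionine, the methyl donor of the cell, from methionine. It had the largest positive change of the genes that stood apart, 1.10 ± 0.22 (adjusted p = 0.101). Its level was 12.08, 12.26, 12.27, 12.46 and 11.41 on the later arrays, against 10.98, 10.71 and 11.32 on the early arrays, and the 24 h duplicate lay at 11.20 and 11.05. The level was highest from 3 to 10 h and near the early arrays at 15 and 24 h. Of 13 measured genes of methionine and polyamine metabolism, AZIN1, the antizyme inhibitor that protects polyamine synthesis, also stood apart as higher (0.42 ± 0.11, adjusted p = 0.136), and the list's median was 0.09.

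Genes of the NRF2 response, which defends against oxidants and electrophiles, had 13 of 14 changes positive, with a median of 0.10. Per array the list's median was 0.06, 0.13, 0.14, 0.11 and 0.22 on the later arrays, against 0.07, −0.02 and −0.01 on the early arrays. The unscratched array thus lay above the 3 h one. HMOX1, TXNRD1, SRXN1 and SQSTM1 stood apart as higher (4 of 14), although no member did under median scaling. HMOX1, the heme-degrading enzyme, measured 8.81, 9.23, 9.62, 9.19 and 9.24 on the later arrays, against 8.50, 8.42 and 8.70 on the early arrays (change 0.68 ± 0.15, adjusted p = 0.113). It measured 10.17 and 10.11 at 24 h, above every array of the comparison. TXNRD1, a thioredoxin reductase, lay at 10.64 to 10.96 on the later arrays, against 10.40 to 10.48 on the early arrays, and at 11.07 on both 24 h arrays. Metallothioneins, small cysteine-rich proteins that bind zinc, had 7 of 7 positive changes with a median of 0.25, and none stood apart. By array the list's median was already 0.28 at 2 h, reached 0.46 and 0.49 at 3 and 4 h, and was −0.03 at 15 h. MT1X, whose probe may also take up RNA of near-identical family members, measured 11.15, 11.53, 11.38, 11.39 and 10.53 on the later arrays, against 9.84, 10.05 and 11.09 on the early arrays (change 0.87 ± 0.28, adjusted p = 0.227).

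Smaller groups were mixed. CCNE1, the cyclin that drives entry into S phase, measured 9.73, 9.78, 9.87, 10.02 and 9.52 on the later arrays, against 9.30, 9.24 and 9.21 on the early arrays (change 0.53 ± 0.11, adjusted p = 0.101), and it stood apart under median scaling too. CDC25A, a phosphatase that opens the same step, stood apart with a change of 0.37 ± 0.13 (adjusted p = 0.247), and CDT1, which licenses replication origins, stood apart as lower with −0.34 ± 0.11 (adjusted p = 0.226). Both overlapped under median scaling. Over the 29 measured genes of G1/S and replication the median was 0.01, as over all genes. Heat shock genes had a median of 0.09, and the chaperone genes BAG3 (0.30 ± 0.09) and DNAJA1 (0.36 ± 0.13) stood apart as higher (2 of 18; adjusted p = 0.212 and 0.267), neither under median scaling.

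**Figure D3:**
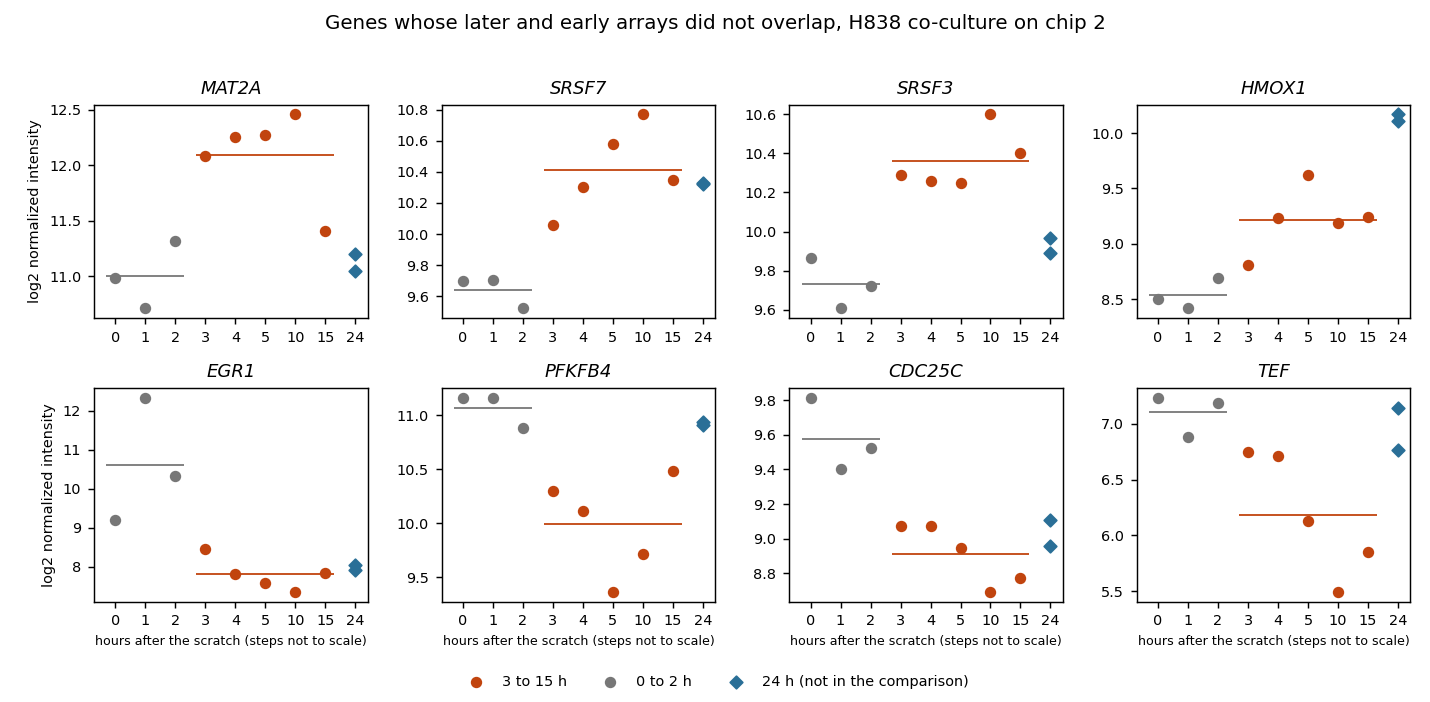
Log2 normalized intensity against hours after the scratch for 8 genes whose later (orange) and early (grey) arrays did not overlap, with group means as lines and the 24 h duplicate as blue diamonds. MAT2A, SRSF7, SRSF3 and HMOX1 lay higher and EGR1, PFKFB4, CDC25C and TEF lower on the later arrays. EGR1 peaks at 1 h within the early arrays, while PFKFB4 is lowest at 5 h and near its early level at 24 h.

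The immediate early genes as a list were highest at 2 h, within the early arrays. EGR1, a zinc finger transcription factor induced within minutes by ERK and serum response factor, measured 9.19 at 0 h, 12.33 at 1 h and 10.33 at 2 h. The later arrays had 8.45, 7.81, 7.58, 7.35 and 7.85, all below the unscratched array, and the 24 h duplicate had 8.05 and 7.93. The change between later and early arrays was −2.81 ± 0.53 for EGR1, and it did not pass the test (adjusted p = 0.0930) since the early arrays themselves spread by 1.59 (SD, n = 3), against 0.41 (SD, n = 5) for the later arrays. On chip 1 the same co-culture had 9.10 at 0 h and 11.11 at 0.5 h. FOS was detected on 2 early and 0 later arrays, between 4.74 and 9.71 over the 8 arrays, and was not tested. FOSB, its close relative, measured 8.82, 7.06, 6.67, 5.33 and 5.59 on the later arrays, against 6.13, 9.51 and 10.64 on the early arrays (change −2.06 ± 0.96, adjusted p = 0.363). Its 0 h array was nearly as low as the 10 and 15 h arrays.

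The promoter of EGR1 is printed because it holds the binding motif of serum response factor, the CArG box, which links this gene to the wound stimulus in textbook accounts. RefSeq's promoter for it (GRCh38.p14, chr5:138465229-138465528, plus strand, spanning the start) has CArG boxes beginning 105 and 83 bases before the start, here in capitals. Both read as CArG on either strand.
EGR1: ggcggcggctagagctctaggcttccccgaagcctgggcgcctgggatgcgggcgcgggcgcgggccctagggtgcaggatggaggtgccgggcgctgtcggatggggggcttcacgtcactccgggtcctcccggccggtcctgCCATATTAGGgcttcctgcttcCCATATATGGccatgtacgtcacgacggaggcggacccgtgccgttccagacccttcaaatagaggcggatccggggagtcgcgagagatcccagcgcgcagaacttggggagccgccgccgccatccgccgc
A CArG box is held by 454 of RefSeq's 35116 promoters (1.3%), and by 2 of 16 immediate early genes with a promoter among them. Here and for the motifs below, a gene counts if any of its listed promoters matches, while the shares are of single promoters. Genes with several promoters have more chances of a match, so the counts and shares are not like for like. A match describes these letters and shows no binding.

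Of 23 measured immediate early genes, 20 changes were negative with a median of −0.21, and 8 were lower and 0 higher at an unadjusted p under 0.05. EGR1 and KLF6 stood apart as lower (2 of 23, against 3.81%), KLF6 with a change of −0.21 ± 0.09, and EGR1, KLF4, MAFF and KLF10 (4 members) did so under median scaling. By array the median was −0.11, −0.19, −0.24, −0.32 and −0.32 on the later arrays, against −0.34, 0.01 and 0.26 at 0, 1 and 2 h. The unscratched array was therefore as low as the latest ones, and the difference lay against the 1 and 2 h arrays. DUSP6 and SPRY2, feedback inhibitors that ERK induces against itself, stood apart as lower (2 of 13 such genes, 0 under median scaling). DUSP6 measured 10.73, 10.46, 10.62, 10.49 and 10.84 on the later arrays, against 10.94, 11.58 and 11.41 on the early arrays (change −0.68 ± 0.15, adjusted p = 0.105). It too was higher at 1 and 2 h than without a scratch.

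Hypoxia and glycolysis genes lay lower on the later arrays, most of all at 5 h. HIF, the factor behind this programme, is stabilised when oxygen is scarce and raises glucose uptake and glycolysis. Of 26 measured genes 25 changes were negative with a median of −0.26, and 11 were lower and 0 higher at an unadjusted p under 0.05. PFKFB4, SLC2A1, MXI1, HK2, EGLN1 and ENO2 stood apart as lower (6 of 26, against 3.81%), and MXI1, PFKFB4 and ADM (3 members) did so under median scaling. PFKFB4, which sets the level of a glycolytic activator, measured 10.30, 10.11, 9.37, 9.72 and 10.48 on the later arrays, against 11.16, 11.16 and 10.88 on the early arrays (change −1.07 ± 0.22, adjusted p = 0.101). SLC2A1, the glucose transporter GLUT1, measured 9.35, 9.45, 8.74, 8.90 and 9.91 on the later arrays, against 10.23, 10.07 and 10.16 on the early arrays (change −0.88 ± 0.22, adjusted p = 0.134). Both were lowest at 5 h.

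HK2, the hexokinase that commits glucose to glycolysis, measured 8.62, 8.18, 7.93, 8.19 and 8.80 on the later arrays, against 9.04, 9.17 and 8.84 on the early arrays (change −0.68 ± 0.18, adjusted p = 0.158). EGLN1, the prolyl hydroxylase that marks HIF for destruction, had a change of −0.58 ± 0.13 (adjusted p = 0.123). MXI1, a transcriptional repressor, was detected on 3 early and 0 later arrays and was at least 1.16-fold lower, while the test on its measured values gave an adjusted p of 0.0930. KDM3A, a histone demethylase and HIF target, had a change of −0.72 ± 0.23 (adjusted p = 0.224), and its arrays overlapped at 10 and 15 h, where it was higher than at 3 to 5 h. VEGFA, the endothelial growth factor, overlapped as well, with a change of −0.39 ± 0.18 (adjusted p = 0.353).

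HK2's promoter is printed for the short core of the HIF motif, ACGTG, which occurs in it several times (GRCh38.p14, chr2:74834920-74835219, plus strand, 1 of 2 starts in the table). The matches, on both strands, begin 194, 193, 149 and 148 bases before the start and pair up as palindromes that are also E-boxes, CACGTG.
HK2: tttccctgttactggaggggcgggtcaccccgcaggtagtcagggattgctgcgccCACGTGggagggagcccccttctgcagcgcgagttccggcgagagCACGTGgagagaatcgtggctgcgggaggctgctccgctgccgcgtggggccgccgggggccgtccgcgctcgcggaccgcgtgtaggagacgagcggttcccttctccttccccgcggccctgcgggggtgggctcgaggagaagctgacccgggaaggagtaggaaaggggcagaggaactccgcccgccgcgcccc
The core is common: 7518 promoters (21.4%) hold it on one strand or the other. In any of their listed promoters, 15 of 22 hypoxia genes hold it, and of the 6 that stood apart MXI1, EGLN1, ENO2 and HK2 do.

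By array the hypoxia list's median was −0.18, −0.33, −0.47, −0.30 and −0.22 on the later arrays, against 0.07, 0.05 and −0.04 on the early arrays, and 0.03 and 0.01 on the 24 h duplicate. The list was lowest at 5 h and back at the early level a day after the scratch.

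**Figure D4:**
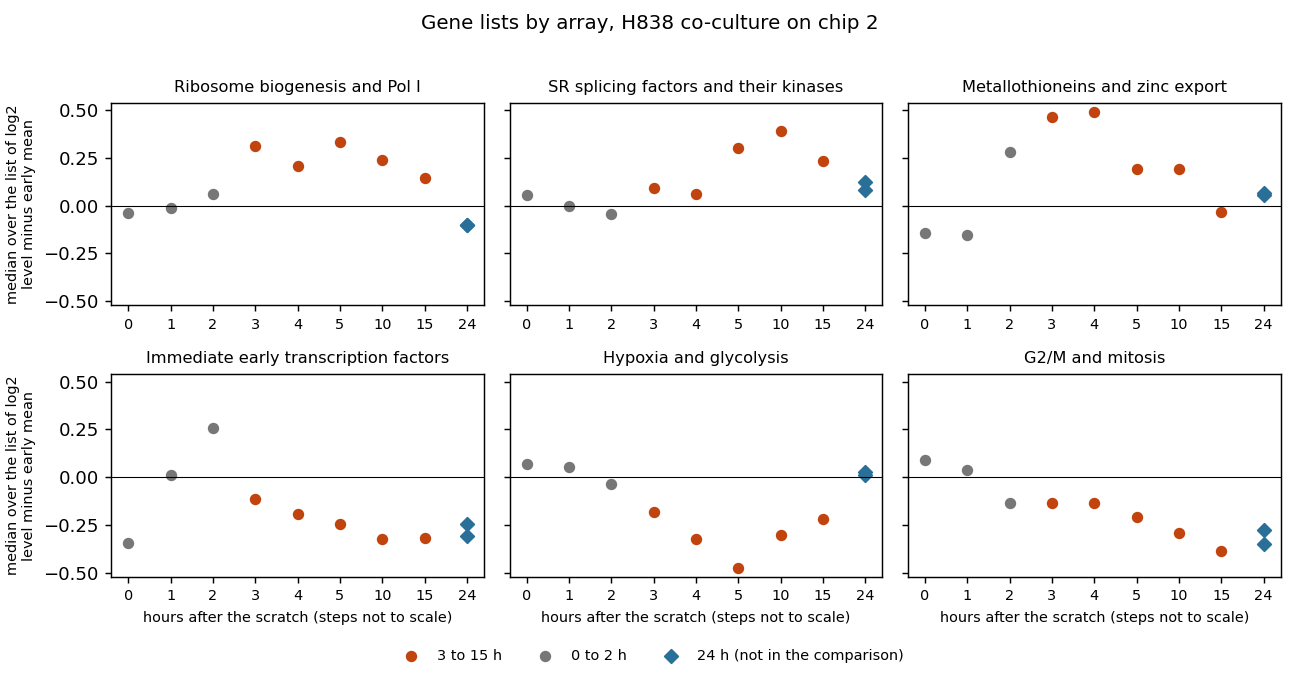
Median over a list's measured genes of the log2 level minus the gene's early mean, for each array against hours after the scratch (orange later arrays, grey early arrays, blue diamonds the 24 h duplicate). Ribosome biogenesis is highest at 5 h and hypoxia lowest at 5 h, both near or past the early level at 24 h, while the mitotic genes are lowest at 15 h and still low at 24 h.

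Mitotic genes lay lower on the later arrays. Cells pass from G2 into mitosis by switching on kinases, phosphatases and spindle proteins whose genes are transcribed together late in the cycle. All 40 genes of the list were measured, 39 changes were negative and the median was −0.22. At an unadjusted p under 0.05, 17 were lower and 0 higher, and 14 stood apart as lower (14 of 40, against 3.81%), 6 under median scaling. CDC25C, a phosphatase that activates the mitotic kinase, measured 9.07, 9.07, 8.94, 8.69 and 8.77 on the later arrays, against 9.81, 9.40 and 9.52 on the early arrays (change −0.67 ± 0.13, adjusted p = 0.0930). PLK1, a kinase of mitotic entry and spindle assembly, measured 8.65, 8.77, 8.73, 8.66 and 8.23 on the later arrays, against 9.07, 9.13 and 9.39 on the early arrays (change −0.59 ± 0.13, adjusted p = 0.113). Both stood apart under median scaling, as did KIF2C, a microtubule depolymerising kinesin, with −0.46 ± 0.11 (adjusted p = 0.130).

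NEK2, a centrosomal kinase, measured 10.04, 9.96, 9.71, 9.52 and 9.90 on the later arrays, against 10.39, 10.40 and 10.44 on the early arrays (change −0.58 ± 0.12, adjusted p = 0.101). The other 10 that stood apart, BUB1B, NUF2, BUB1, NDC80, CCNA2, DLGAP5, KIF20B, PRC1, CCNB2 and BIRC5, had changes of −0.19 to −0.45. By array the median was −0.14, −0.13, −0.21, −0.29 and −0.38 on the later arrays, against 0.09, 0.03 and −0.13 on the early arrays, so the 2 h array had already reached the level of the 3 h one. At 24 h it was −0.28 and −0.35.

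The promoters of CDC25C and PLK1 are printed because mitotic genes share a pair of elements, the CHR (TTTGAA) and the CCAAT box, through which they are repressed outside G2 and activated in it. In capitals are TTTGAA and CCAAT, or ATTGG where CCAAT lies on the other strand. The CDC25C sequence (GRCh38.p14, chr5:138331828-138332127, minus strand, 1 of 4 starts in the table) has its CHR 43 bases after the start and CCAAT boxes 217, 200 and 12 bases before it.
CDC25C: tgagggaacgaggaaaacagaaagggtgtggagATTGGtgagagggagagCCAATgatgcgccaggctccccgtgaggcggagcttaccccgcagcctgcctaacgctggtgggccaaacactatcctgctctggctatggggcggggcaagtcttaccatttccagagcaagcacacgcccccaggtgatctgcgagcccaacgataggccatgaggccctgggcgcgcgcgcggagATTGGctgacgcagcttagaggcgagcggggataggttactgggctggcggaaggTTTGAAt
PLK1: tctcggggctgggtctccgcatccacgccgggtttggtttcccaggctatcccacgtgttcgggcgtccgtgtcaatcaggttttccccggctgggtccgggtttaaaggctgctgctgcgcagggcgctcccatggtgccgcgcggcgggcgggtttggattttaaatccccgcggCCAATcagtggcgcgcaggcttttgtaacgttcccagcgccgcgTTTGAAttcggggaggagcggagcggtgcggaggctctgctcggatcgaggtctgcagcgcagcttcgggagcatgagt
The PLK1 sequence (GRCh38.p14, chr16:23678639-23678938, plus strand) has its CHR 29 and its CCAAT box 73 bases before the start. Of all promoters 15.2% hold a CHR and 34.6% a CCAAT box. Among 35 mitotic genes, 24 hold a CHR and 28 a CCAAT box in any of their listed promoters. Of the 13 that stood apart 9 hold each.

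Among clock genes the PAR-domain factors TEF and DBP and the nuclear receptor NR1D2 stood apart as lower (3 of 11), and NFIL3, a repressor that competes with the PAR factors for their sites, stood apart as higher. Under median scaling TEF, NR1D2 and PER3 stood apart as lower, and DBP and NFIL3 overlapped. The list's median was −0.43, with 7 of 11 changes negative and 4 positive, and 4 lower and 0 higher at an unadjusted p under 0.05. By array the median was smaller, at −0.03, −0.16, −0.34, −0.33 and −0.32 on the later arrays, against −0.01, −0.02 and 0.03 on the early arrays. TEF measured 6.74, 6.71, 6.13, 5.50 and 5.85 on the later arrays, against 7.23, 6.88 and 7.19 on the early arrays (change −0.91 ± 0.26, adjusted p = 0.174), and was detected on 3 of the 5 later arrays. DBP measured 7.86, 7.63, 7.68, 7.65 and 7.82 on the later arrays, against 8.63, 8.34 and 8.10 on the early arrays (change −0.63 ± 0.12, adjusted p = 0.0930). NR1D2 measured 7.25, 6.75, 6.28, 6.36 and 6.91 on the later arrays, against 7.41, 7.95 and 7.36 on the early arrays (change −0.86 ± 0.22, adjusted p = 0.134). TEF was lowest at 10 h and NR1D2 at 5 h, and TEF was back at 7.14 and 6.77 and NR1D2 at 7.43 and 7.50 at 24 h. BHLHE40, another clock repressor, peaked in the early arrays at 2 h and overlapped.

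TEF's promoter is printed for its E-box, CACGTG, the site of the clock's activators, which lies 195 bases before the start (GRCh38.p14, chr22:41367205-41367504, plus strand, 1 of 2 starts in the table). The motif contains the HIF core named above.
TEF: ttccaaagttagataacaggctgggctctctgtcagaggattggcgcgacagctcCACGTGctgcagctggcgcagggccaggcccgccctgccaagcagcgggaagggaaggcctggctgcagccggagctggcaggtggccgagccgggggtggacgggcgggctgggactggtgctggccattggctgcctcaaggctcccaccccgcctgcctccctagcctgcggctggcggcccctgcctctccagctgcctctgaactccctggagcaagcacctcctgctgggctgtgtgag
An E-box is held by 7.3% of all promoters. In any of their listed promoters, 3 of the 11 clock genes measured hold it, and NR1D2 and TEF do of the 4 that stood apart.

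Genes of endoplasmic reticulum (ER) stress and the amino acid response lay mostly lower too. Such genes answer unfolded proteins or lack of amino acids, in part by way of eIF2α phosphorylation. Of 31 measured genes 24 changes were negative with a median of −0.12, and 8 were lower and 1 higher at an unadjusted p under 0.05. PPP1R15A, DDIT3, PCK2, AARS1 and SHMT2 stood apart as lower (5 of 31) and ATF5 as higher. Under median scaling PPP1R15A, PCK2, ATF4 and ASNS (4 members) stood apart as lower and ATF5 as higher. PPP1R15A, the phosphatase subunit that undoes the eIF2α mark, measured 9.42, 9.08, 9.08, 8.95 and 9.10 on the later arrays, against 9.50, 10.04 and 10.27 on the early arrays (change −0.81 ± 0.16, adjusted p = 0.101). It was highest at 2 h. DDIT3, the factor CHOP, measured 8.80, 8.58, 8.65, 8.23 and 8.47 on the later arrays, against 9.06, 8.83 and 9.32 on the early arrays (change −0.53 ± 0.14, adjusted p = 0.158). ATF5, an activator of the same family as ATF4, had the opposite sign, with a change of 0.38 ± 0.11 (adjusted p = 0.203) and its highest value at 5 h.

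Sterol synthesis genes lay low at 10 and 15 h. Of 25 measured genes of cholesterol and fatty acid synthesis, INSIG1, MSMO1, IDI1, SREBF2 and ACACA stood apart as lower (5 of 25, 3 under median scaling). INSIG1, which retains the sterol sensor in the endoplasmic reticulum, measured 12.39, 12.28, 11.94, 11.49 and 11.69 on the later arrays, against 12.52, 12.57 and 12.46 on the early arrays (change −0.56 ± 0.19, adjusted p = 0.233). MSMO1, a sterol demethylase, measured 12.01, 11.94, 11.88, 11.40 and 11.37 on the later arrays, against 12.19, 12.05 and 12.28 on the early arrays (change −0.45 ± 0.16, adjusted p = 0.254). The list's median by array was 0.02, 0.10 and 0.00 at 3, 4 and 5 h and −0.30 and −0.41 at 10 and 15 h, and at 24 h it was −0.05 and −0.08.

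The series' title names TNF and SDF-1 as signals from endothelial cells, and here, beside H838, TNF and CXCR4, the receptor of SDF-1, were detected on none of the 8 arrays. CXCL12, which encodes SDF-1, measured 5.83, 5.62, 5.98, 5.95 and 5.96 on the later arrays and 6.10, 6.22 and 5.65 on the early arrays, which overlapped (change −0.12 ± 0.14, adjusted p = 0.742), and was detected on 3 later and 2 early arrays. TNFRSF1A, the main TNF receptor, stood apart as higher by 0.20 ± 0.10 (adjusted p = 0.395). Of 18 measured targets of NF-kB, CXCL2 stood apart as higher (0.40 ± 0.12) and CXCL5, TNIP1 and SOD2 as lower, with changes of −0.28 to −0.47, and none of the 18 did under median scaling. CXCL8, a neutrophil chemokine, measured 6.77, 7.29, 6.56, 7.03 and 7.22 on the later arrays, against 6.24, 7.14 and 6.27 on the early arrays (change 0.42 ± 0.22, adjusted p = 0.422). Its groups overlapped through the 1 h array.

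Genes of movement and shape gave little. Of 17 measured genes of migration, integrins and proteases, MMP1, a collagenase, and ITGA5, the fibronectin receptor subunit, stood apart as lower (2 of 17), with changes of −0.39 ± 0.11 and −0.34 ± 0.10 (adjusted p = 0.182 and 0.207), neither under median scaling. MMP1 measured 10.20, 10.32, 10.35, 9.91 and 10.16 on the later arrays, against 10.45, 10.60 and 10.69 on the early arrays, and 9.28 and 9.15 at 24 h. Of 22 measured actin and SRF targets, 18 YAP and TEAD targets and 13 mesenchymal genes, none stood apart, and their medians were −0.04, −0.03 and 0.02. Interferon-stimulated genes, 11 measured, likewise had none apart and a median of −0.03. CDKN1A, the p53 target p21, measured 11.13, 11.24, 10.80, 10.48 and 9.85 on the later arrays, against 10.23, 10.39 and 11.24 on the early arrays, highest from 2 to 4 h, and the groups overlapped (change 0.08 ± 0.31, adjusted p = 0.943).

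Outside the lists, several genes with low p or large changes stood apart. MXD3, a repressor of the MAX network, measured 7.05, 6.80, 6.44, 6.54 and 6.69 on the later arrays, against 7.78, 7.62 and 7.33 on the early arrays (change −0.87 ± 0.15, adjusted p = 0.0748). ELAVL3, an RNA-binding protein best known from neurons, measured 8.45, 8.30, 8.42, 8.26 and 8.51 on the later arrays, against 8.98, 9.19 and 8.88 on the early arrays (change −0.63 ± 0.10, adjusted p = 0.0636). SLC35G1, a membrane protein of the solute carrier family, measured 7.41, 7.43, 7.64, 7.29 and 7.69 on the later arrays, against 6.82, 6.85 and 6.85 on the early arrays (change 0.65 ± 0.11, adjusted p = 0.0636). Its early arrays were nearly equal and all later ones lay clear of them. The zinc finger genes ZNF564, ZNF343 and ZNF234 had changes of 0.86 ± 0.21, 0.79 ± 0.17 and 0.65 ± 0.16 (adjusted p = 0.133, 0.111 and 0.136), with ZNF564 detected on 2 and ZNF343 on 1 of the 3 early arrays. RIMKLA, an enzyme that makes N-acetylaspartylglutamate, had −0.80 ± 0.16 (adjusted p = 0.101). Under median scaling MXD3 and SLC35G1 stood apart, and the other 5 named here overlapped.

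In the lists not described above, the member with the smallest p is named. Of those that stood apart, XPC alone did so under median scaling too. FKBP5, a chaperone partner that glucocorticoids induce, stood apart as higher by 0.40 ± 0.12 (adjusted p = 0.192), as did XPC, a damage sensor of nucleotide excision repair and p53 target, by 0.36 ± 0.10 (adjusted p = 0.164). TJP1, a tight junction scaffold, stood apart as higher by 0.18 ± 0.08 (adjusted p = 0.361), and UQCRC2, a core subunit of respiratory complex III, as lower by −0.28 ± 0.10 (adjusted p = 0.250). PTPN14 among YAP targets (0.24 ± 0.16), TGFBI among TGF-beta targets (−0.24 ± 0.11), ISG20 among interferon-stimulated genes (−0.22 ± 0.11), ARRDC3 among MondoA targets (0.37 ± 0.11), H3C10 among histones (0.34 ± 0.12) and CD68 among lysosomal genes (−0.46 ± 0.15) had overlapping arrays. Their adjusted p lay between 0.190 and 0.545.

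The later arrays were then split by time, against the same early arrays, into 3 to 5 h (3 arrays) and 10 to 15 h (2 arrays). SCARNA20 alone passed at 3 to 5 h (1 gene, 0.00968%), and its level there was 5.69, 5.51 and 5.53, not detected on those arrays. At 10 to 15 h 0 genes passed, with 1402 at an unadjusted p under 0.05 (13.6%). The direct step between the sets also gave 0 genes, with 932 at an unadjusted p under 0.05 (9.02%). The genes with the smallest p at 10 to 15 h were CYP4V2, an enzyme of fatty acid hydroxylation, LRRN2 and TEF. CYP4V2 measured 9.21 and 9.29 at 10 and 15 h and 8.91, 8.79 and 8.94 at 3 to 5 h, against 8.17, 8.48 and 8.36 on the early arrays. Its 3 sets of arrays did not overlap. For the step the smallest p belonged to WNT10B, PMS1 and FBXL7. PMS1, a mismatch repair gene, measured 7.09 and 7.67 at 10 and 15 h, against 6.55, 6.44 and 6.38 at 3 to 5 h, with 7.15, 7.18 and 7.21 on the early arrays. With median scaling the counts were 59 at 3 to 5 h (6 higher and 53 lower), 55 at 10 to 15 h (44 higher and 11 lower) and 91 for the step (87 higher and 4 lower).

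Of the 544 genes that stood apart as higher, the extreme lay at 3 h for 82, at 4 h for 85, at 5 h for 132, at 10 h for 145 and at 15 h for 100. Of the 393 lower ones the extreme lay at 3 h for 58, at 4 h for 59, at 5 h for 91, at 10 h for 110 and at 15 h for 75. The 24 h duplicate on the same chip, which was not used in the comparison, stayed within or past the later range for 184 of the 544 higher genes and returned to or past the early range for 142. Of the 393 lower genes 165 stayed and 88 returned. Of the called genes PIK3IP1 lay at 8.92 and 9.01, within and above its early range, and GPATCH4 at 8.22 on both arrays, below its early range. ZNF664 (7.02 and 7.01), RIOK1 (8.80 and 8.72) and TERC (7.67 and 7.69) lay between the ranges. NUFIP1 had 1 array in the later range and 1 between (7.22 and 6.89), and SCARNA14 (5.97 and 5.67) and SCARNA20 (6.31 and 6.48) each had 1 in the early range and 1 between.

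The HPAEC co-culture gave the same contrast on other arrays and another chip. Its plated cells were H838 too, and its arrays were normalized together with those of this comparison. The labels do not say whether the co-cultures shared other steps of culture or handling. Beside HPAEC 100 genes passed (0.971% of 10294 tested), 54 higher (0.525%) and 46 lower (0.447%), and 1408 stood apart (13.7%). With median scaling 139 passed there, 125 higher and 14 lower. The count rested on single arrays there too: 0 genes passed without the 1, 4, 5 or 10 h array, 4 without the 0 h array, 195 without the 3 h array and 227 without the 2 h array. Of the 8 genes called beside H838, 7 were tested beside HPAEC, all 7 with the same sign, 5 at an unadjusted p under 0.05 (against 20.9% of all genes beside HPAEC) and 1, SCARNA20, past the adjusted threshold (adjusted p = 0.0249). SCARNA20 was detected there too on 0 later and 3 early arrays. PIK3IP1 had −0.55 ± 0.11 (adjusted p = 0.0545), GPATCH4 0.55 ± 0.14, RIOK1 0.52 ± 0.13 and TERC −0.39 ± 0.10 beside HPAEC. For NUFIP1 (0.44 ± 0.21) and ZNF664 (0.26 ± 0.13) the arrays beside HPAEC overlapped.

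In the other direction 97 of the 100 genes called beside HPAEC were tested beside H838. There 90 had the same sign, against 7098 of 10097 genes (70.3%) tested on both. With the same sign and an unadjusted p under 0.05 were 64 (66.0%), against 14.2% of all genes in either direction. LINC00472, a long non-coding RNA, measured 8.02, 8.46, 8.95, 8.71 and 7.89 beside H838 on the later arrays, against 7.08, 7.47 and 7.62 on the early arrays (change 1.02 ± 0.23), and its change beside HPAEC was 1.42 ± 0.26. TOE1, a nuclease that trims small nuclear RNA ends, had 0.74 ± 0.18 beside H838 and 1.05 ± 0.19 beside HPAEC. MXD3, a repressor of the MAX network, had −0.87 ± 0.15 beside H838 and −0.89 ± 0.13 beside HPAEC, and EGR1 had −2.81 ± 0.53 beside H838 and −2.60 ± 0.51 beside HPAEC. SRSF3 and SRSF7, not called here, had 0.79 ± 0.13 and 0.98 ± 0.18 beside HPAEC, where both passed (adjusted p = 0.0311 and 0.0377).

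**Figure D5:**
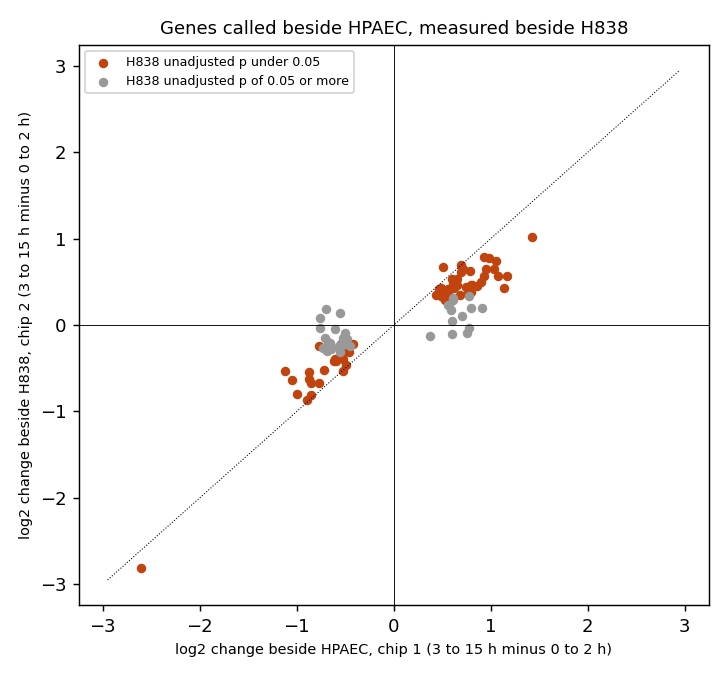
Log2 change (3 to 15 h minus 0 to 2 h) beside HPAEC on chip 1 (horizontal) and beside H838 on chip 2 (vertical) for the 97 genes called beside HPAEC and tested beside H838. Orange points have an unadjusted p under 0.05 beside H838, grey points do not, and the dotted line marks equal change. Of the 97 points 90 have the same sign on both axes; the genes were chosen by their test beside HPAEC, so the sizes on the 2 axes are not compared.

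The genes that stood apart overlapped between the co-cultures in both directions. Of 542 higher beside H838 and tested beside HPAEC, 190 also stood apart as higher there (35.1%), which is 25.7% of the 740 that did so beside HPAEC, and 0 stood apart as lower. Of 388 lower ones 131 did so in both (33.8%, and 19.9% of 657), and 3 stood apart the opposite way. Of the lists described, the medians beside HPAEC were 0.22 for ribosome biogenesis, 0.29 for SR factors and their kinases, −0.46 for hypoxia, −0.20 for mitosis, −0.31 for immediate early genes, −0.27 for clock genes and −0.26 for ER stress genes. The NRF2 list had 0.10 beside H838 and −0.01 beside HPAEC, cytosolic ribosomal proteins −0.01 beside H838 and 0.02 beside HPAEC, and mesenchymal genes 0.02 beside H838 and −0.05 beside HPAEC. These 3 medians had opposite signs, and their differences were not tested.

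Whether the change differed between the co-cultures was tested on the differences of arrays paired by time. Of 10791 genes 0 passed (0%), with 722 at an unadjusted p under 0.05 (6.69%), and the smallest adjusted p was 0.224. The smallest p-values belonged to ZNF226, SNORD78 and ZNF22, and ZNF226 had 0.14 beside H838 against −0.55 beside HPAEC. For TERC, whose change was larger beside H838 than beside HPAEC, the difference was −0.52 ± 0.12 (adjusted p = 0.472). Chip and co-culture were the same split in this test and cannot be told apart.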

How the data were processed

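Illumina HT-12 BeadChip values of 24 arrays were used, 8 of them in the main comparison. The deposited table of raw values holds 1 linear probe intensity per array, not normalized, and after each a detection p-value against negative control beads, per the file headers. A second deposited table holds the authors' normalized intensity values, by a method not given in the sources used here. For the tests, limma's normexp correction estimated the background through the detection p-values with an offset of 16. The 24 arrays were then quantile-normalized together and taken to log2. A probe was kept with detection p under 0.01 on at least 3 of the 8 arrays and 1 gene symbol in GEO's platform annotation (30080 of 47286 probes had 1 symbol, 8 several and 17198 were not listed), and the probe of highest mean stood for a gene. Arrays were grouped by the labels' co-culture, BeadChip and time. Tests were limma 3.58.1 in R 4.3.3 (lmFit and eBayes, Benjamini-Hochberg over all genes tested, threshold 0.05), checked on simulated data.

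Named genes were all genes past the threshold, the member with the smallest p of each list without a called gene, a fixed set of marker and pathway genes, and for the other contrasts up to 6 per direction or the 3 smallest p. Further genes were added for arrays that stood apart, after their values were seen. The members and lists were chosen with earlier results of these data known. Promoter sequences are RefSeq's (GRCh38.p14). The tables used here hold no sequence for TERC, SCARNA14 or SCARNA20, which are named only.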

Additional observations from a re-analysis of the deposited data

Results flagged for a closer look

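PLK1 at 15 h stood out among the 5 later arrays. Its level there was 8.226 log2, while the other later arrays lay between 8.651 and 8.765, and its gap to the nearest of them was 0.788 of the group's range, above Dixon's 95% critical value of 0.71 for 5 samples. It was the only such value among 95 named genes looked at in this way, and chance marks about 1 in 20 groups. Not every gene named in the text was among the 95. SRSF6, whose 15 h array also lay far below its other later arrays, was not. The test assumes replicates, while the 5 later arrays were 5 different times. Without the 15 h array the change of PLK1 kept its sign. The cause was not tested.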

How the results depend on the processing

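The count of 8 genes past the threshold became 13 with median scaling, 77 without background correction, 28 with a normexp offset of 50, 87 with the authors' deposited table, 0 with no detection filter, 16 with detection on all 8 arrays and 87 with trend and robust moderation. It was 282 with all 24 arrays and chip as a term, 161 with the chip 1 H838 arrays added to the early arrays and 0 with the 24 h arrays added. Among alternatives chosen after seeing the data it was 1 with the 0 h array alone as early (a lone array assumed to vary like the others), 0 with detection on 2 of the 24 arrays and 0 with all kept probes. Where it was 0, the genes at an unadjusted p under 0.05 numbered 2062 without a filter, 1295 with the 24 h arrays, 1483 with 2 of 24 arrays and 2294 with all kept probes. Leaving out each array in turn gave 0 to 13. The 937 genes that stood apart became 249 with median scaling, 466 with the chip 1 arrays and 481 with the 24 h arrays, and 1069 to 1824 with each array left out, where fewer arrays have to be ordered.

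For 3 to 5 h, 10 to 15 h and the step between them, the counts of 1, 0 and 0 became 59, 55 and 91 with median scaling, 107, 123 and 14 without background correction, 119, 139 and 13 with the authors' deposited table, and 146, 162 and 17 with trend and robust moderation. An offset of 50 gave 8 and 50 for the first and second, detection on all arrays 13 and 10, and no filter 0 for the first. With each array left out they were 0 to 16, 0 to 1 and 0 to 2. Beside HPAEC the 100 genes became 139 with median scaling (125 higher and 14 lower), 388 without background correction, 240 with an offset of 50, 411 with the authors' deposited table, 0 without a filter, 173 with detection on all arrays and 560 with trend and robust moderation, and 0 to 227 with each array left out. The difference between co-cultures gave 0 in every setting tried.

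The sign turned for genes whose change was near 0. KRT18 had −0.025 in the authors' deposited table, and with each array left out between −0.17 without 0 h and 0.16 without 2 h, with −0.09 without 3 h. CDKN1A had −0.11 with the 24 h arrays, −0.12 without 0 h, −0.04 without 1 h, −0.03 without 3 h, −0.06 without 4 h and, the highest, 0.39 without 2 h. EPCAM had 0.0032 with the 24 h arrays and BHLHE40 0.0016 with 0 h alone. PTPN14 ranged from −0.0064 without 2 h to 0.43 without 1 h. The causes were not tested. Of the other values of named genes, 174 came to pass the threshold, 96 no longer passed it, and 1811 kept direction and side of the threshold. The last number includes some medians over all genes. No paired analysis was possible because, within the H838 comparison, each time has 1 array on this chip, so nothing pairs a later with an early array. The difference between co-cultures was paired by time, and without that pairing it also gave 0 genes (490 at an unadjusted p under 0.05).

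The limits are those of 8 arrays at 8 different times. No time within the comparison was repeated on the chip, so error and change over time are not separated. Background signal limits dim probes: a bound was given where no array of a group detected the gene, and measured changes, with the number of arrays that did, for most others detected on part of a group.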
